A study of Mus musculus with 44 samples.

Results

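The 7 genes Nos2, Arg1, Arg2, Slc7a2, Ass1, Asl and Odc1 carry arginine into macrophages, split it, and use or recycle its products. They were taken by their symbols from the 46078 genes of the count table, and all 7 were among the 14537 that passed the filter on low counts. Arginine enters through cationic amino acid transporters such as the one that Slc7a2 encodes. The inducible nitric oxide synthase, the product of Nos2, turns it into nitric oxide and citrulline, and this is a classical trait of macrophages exposed to bacterial products. Arginase 1, in the cytosol, and arginase 2, in mitochondria, turn it into urea and ornithine instead, and arginase 1 is a textbook marker of alternative activation in mouse macrophages. Argininosuccinate synthase (Ass1) and argininosuccinate lyase (Asl) rebuild arginine from citrulline, and ornithine decarboxylase (Odc1) leads ornithine into the polyamines.

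Messenger RNA was sequenced in 44 libraries of peritoneal macrophages from C57BL/6 mice, drawn out with thioglycolate and selected as adherent cells. The cultures received 10 µg/mL of an extract of H9c2 cells, a line derived from rat heart, 100 ng/mL of LPS (lipopolysaccharide, a bacterial product), 10 ng/mL of IL-4 (interleukin 4), or no addition, each for 8, 24 or 72 h. Each of the 12 groups had 4 cultures, except cell extract at 24 and 72 h, IL-4 at 72 h and control at 72 h with 3. All cultures came from 1 isolate pooled from several mice, so every p-value measures the spread between cultures and not between animals, and the sources used here do not give the age or sex of the mice.

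Libraries held 0.908 to 26.6 M (mega) gene counts, with group medians from 2.42 M for IL-4 at 8 h to 15.9 M for IL-4 at 72 h. All 7 macrophage markers (Adgre1, Csf1r, Cd68, Itgam, Lyz2, Cd14 and Mertk) had reads in every library, at a summed level of 7888 to 30660 CPM (counts per M counts of the library, with TMM scaling). The summed level of 8 neutrophil markers, of which S100a8 reached 517 CPM and the other 7 at most 12.9 CPM in any library, differed between groups. In 8 h cultures the sum was 100.4 to 138 CPM with cell extract and 74.9 to 106 CPM with LPS, against 31.4 to 44.4 CPM in control. At 24 h it was 125 to 173 CPM with cell extract and 56.9 to 67.7 CPM with LPS, against 18.8 to 34.2 CPM in control, and at 72 h 32.4 to 41.9 CPM with cell extract and 300 to 527 CPM with LPS, against 39.9 to 57.8 CPM in control. Its part in the results for Nos2, Arg1 and the other genes was not tested. Ly6g was at 0 in 32 of the 44 libraries, and the granule genes Elane, Ngp and Mpo stayed at or below 1.34 CPM in all. Camp and Retnlg, of the same list, reached 12.9 and 2.675 CPM, and were at 0 in 19 and 24 libraries.

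Several libraries stood apart. Control 8 h replicate 1 and control 24 h replicate 1 held more Nos2 and Slc7a2 RNA than the other cultures of their groups, and IL-4 24 h replicate 1 and LPS 72 h replicate 1 had 0.908 and 1.10 M counts. Control 8 h replicate 1, control 24 h replicate 1 and IL-4 24 h replicate 1 are the 3 libraries that earlier results of these data showed with higher LPS-induced genes, and results that change without them are given. IL-4 72 h replicate 3 held more Ass1 and Arg2 RNA than the other 2 cultures of its group. In bulk RNA, fewer cells with a transcript and less of it per cell cannot be told apart.

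A gene was called at an adjusted p under 0.05 in edgeR's quasi-likelihood test, fitted to all genes and libraries at once. With cell extract, 4 of the 7 genes rose against control at 8 h (of all tested genes 13.0% were called higher, 17.2% lower and 30.2% either way), 5 at 24 h (11.7% higher, 10.4% lower, 22.1% either way) and 5 at 72 h (14.2% higher, 12.2% lower, 26.3% either way). With LPS, 5 rose and 1 fell at 8 h (21.3% of all genes higher, 24.1% lower, 45.4% either way), 4 rose at 24 h (18.6% higher, 19.3% lower, 37.9% either way) and 4 rose at 72 h (16.1% higher, 15.4% lower, 31.5% either way). With IL-4, 3 rose at 8 h (4.29% of all genes higher, 4.04% lower, 8.33% either way), 3 at 24 h (4.74% higher, 4.76% lower, 9.50% either way) and 5 at 72 h (13.2% higher, 10.5% lower, 23.7% either way). The median log2 change of the 7 genes was 0.84, 3.70 and 2.07 with cell extract at 8, 24 and 72 h, where that of all tested genes was -0.06, -0.06 and 0.00. With LPS it was 1.56, 4.28 and 4.18, against 0.00, -0.07 and 0.05 for all genes, and with IL-4 it was 0.06, 1.23 and 2.27, against -0.04, -0.03 and -0.00. The genes that moved differed between stimuli: Slc7a2 rose under each, Nos2, Arg2 and Ass1 mainly with LPS and cell extract, and Arg1 mainly with IL-4.

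**Figure D1:**
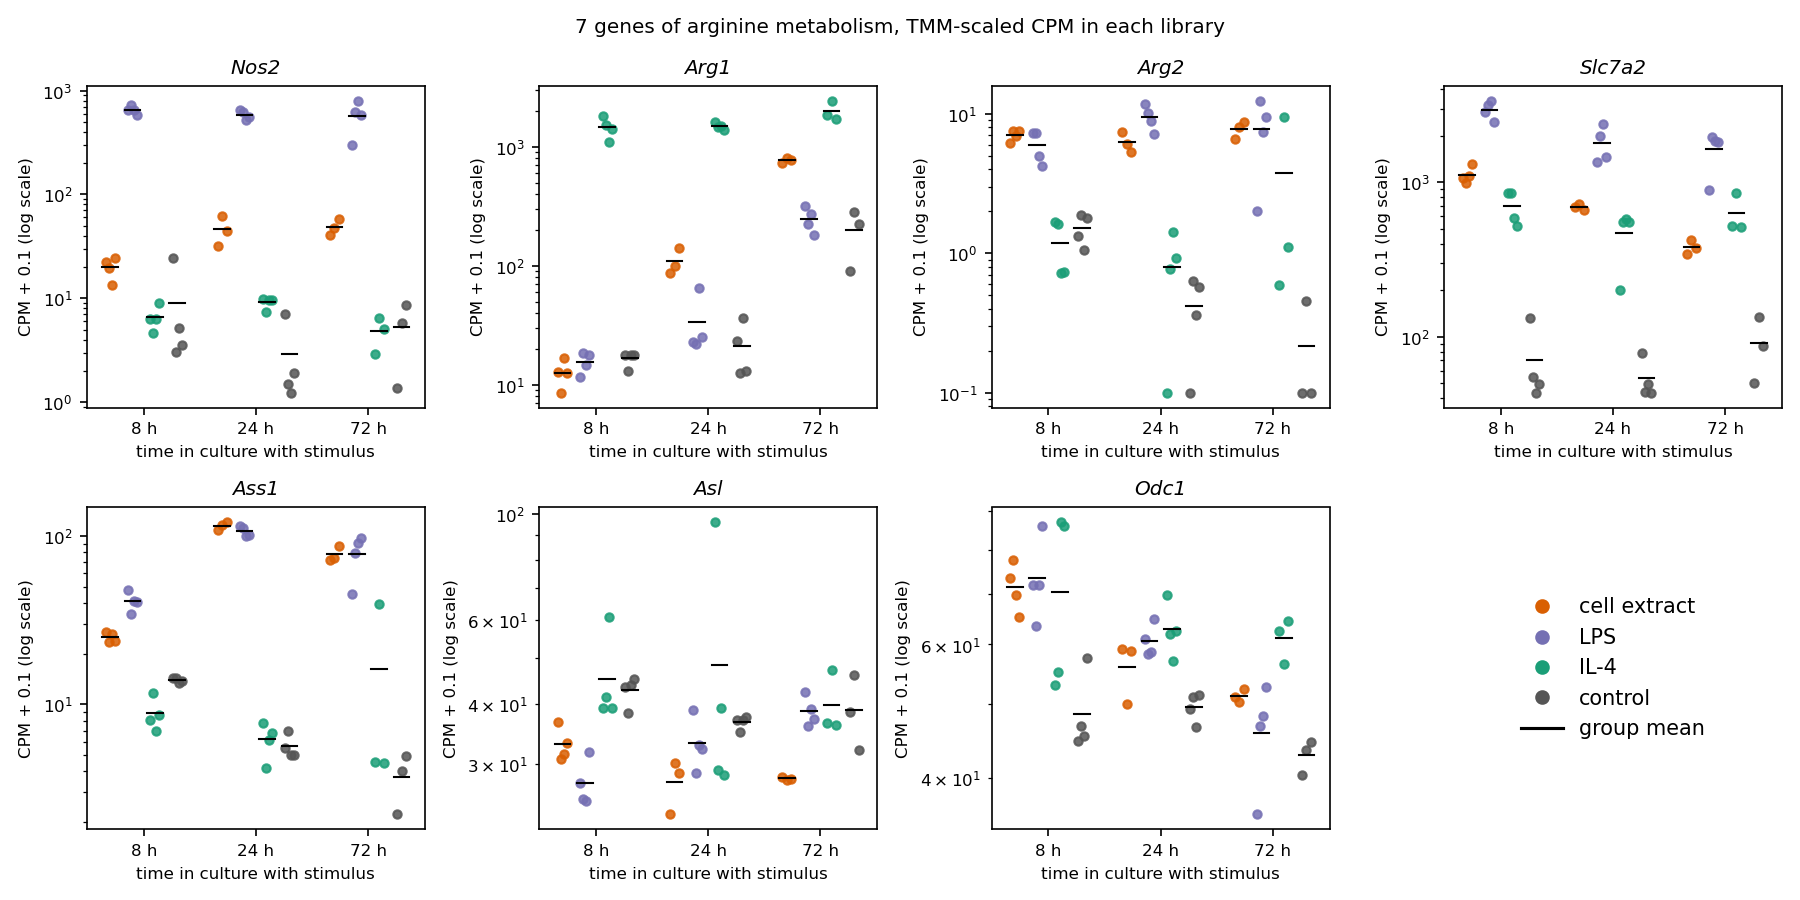
TMM-scaled CPM plus 0.1 (log axis) of the 7 genes in each of the 44 libraries, by time and stimulus, with bars at group means. Nos2 is highest in the LPS cultures and Arg1 in the IL-4 cultures at every time, all control cultures are the lowest for Slc7a2, and Ass1 stands alike with cell extract and LPS at 24 and 72 h.

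Slc7a2 encodes the cationic amino acid transporter CAT2, the inducible entry route for arginine in macrophages. It lies on the plus strand of chromosome 8 at 40862396 to 40922308 (GRCm38, as are all gene positions here; Ensembl identifier ENSMUSG00000031596), and 6.95% of its exonic bases also belong to the antisense transcript Gm26584. At 8 h, Slc7a2 stood at 1059, 983, 1102 and 1322 CPM with cell extract, 2863, 3150, 3380 and 2443 CPM with LPS, 854, 847, 588 and 521 CPM with IL-4, and 132, 54.8, 43.2 and 49.3 CPM in control cultures. Every stimulated culture exceeded every control culture, and the LPS cultures stood above all others. The log2 change against control was 3.99 ± 0.34 with cell extract (SE; a 15.9-fold rise; edgeR adjusted p = 2.15e-12), 5.40 ± 0.37 with LPS (42.2-fold; adjusted p = 7.41e-16) and 3.33 ± 0.33 with IL-4 (10.0-fold; adjusted p = 9.86e-10).

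At 24 h, Slc7a2 averaged 692 ± 28.7 CPM with cell extract (SD, n = 3), 1801 ± 476 with LPS, 471 ± 181 with IL-4 and 53.6 ± 16.7 in control cultures (n = 4 each). At 72 h the means were 380 ± 37.8 CPM with cell extract, 1634 ± 496 with LPS, 630 ± 197 with IL-4 and 90.6 ± 42.3 in control cultures (n = 4 for LPS and 3 for the others). The stimulated and control ranges did not overlap at either time. At 24 h the rise was 13.0-fold with cell extract, 33.8-fold with LPS and 8.90-fold with IL-4 (edgeR adjusted p = 4.03e-11, 4.90e-15 and 5.01e-09). The log2 rise over control at 72 h was 2.07 ± 0.37 with cell extract, 4.18 ± 0.39 with LPS and 2.80 ± 0.38 with IL-4 (edgeR adjusted p = 4.09e-05, 2.26e-11 and 4.67e-07). The effect of cell extract at 72 h was smaller than its effect at 8 h by 1.92 ± 0.48 on the log2 scale (edgeR adjusted p = 0.00276), and 13.1% of all genes were called higher in this difference, 8.75% lower and 21.9% either way, with 4 of the 7 genes among them. Without the 7 libraries richest in reads counted as ambiguous between genes, a set chosen after seeing the data, that difference was -1.46 with edgeR adjusted p = 0.0671.

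Slc7a2 also exceeded the constitutive arginine carrier Slc7a1 (CAT1) when scaled by merged exon length. With LPS at 8 h Slc7a2 averaged 324 RPKM (counts scaled to library size and exon length) and Slc7a1 averaged 6.83 RPKM. In control cultures at 8 h the levels were 7.66 RPKM for Slc7a2 and 2.78 RPKM for Slc7a1.

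Nos2 (ENSMUSG00000020826; chromosome 11, 78920787 to 78960254, plus strand) rose strongly with LPS and to a lower level with cell extract. At 8 h the cultures held 22.1, 19.4, 13.2 and 24.3 CPM with cell extract, 657, 729, 644 and 586 CPM with LPS, 6.14, 4.54, 6.21 and 8.86 CPM with IL-4, and 24.4, 2.93, 5.12 and 3.41 CPM in control. The LPS cultures stood far above all others, and the cell extract cultures stood above 3 of the 4 control cultures but below control replicate 1. The log2 change was 6.20 ± 0.50 with LPS (73.5-fold; edgeR adjusted p = 8.48e-14) and 1.16 ± 0.43 with cell extract (2.24-fold; adjusted p = 0.0372). The call for cell extract at 8 h rests on the controls: without control replicate 1 the log2 change was 2.45 (edgeR adjusted p = 3.44e-06), while leaving out control replicate 2, 3 or 4 or cell extract replicate 1 or 4 gave 0.82 to 1.10 and ended the call (adjusted p = 0.0762 to 0.179). With IL-4 at 8 h the log2 change was -0.44 (edgeR adjusted p = 0.720).

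At 24 h, Nos2 stood at 31.6, 61.8 and 44.1 CPM with cell extract, 646, 621, 518 and 558 CPM with LPS, 9.80, 7.21, 9.42 and 9.61 CPM with IL-4, and 6.92, 1.39, 1.12 and 1.80 CPM in control. No stimulated culture fell within the control range. The rises were 20.1-fold with cell extract (log2 4.33 ± 0.53; edgeR adjusted p = 1.73e-08) and 256-fold with LPS (log2 8.00 ± 0.56; adjusted p = 3.36e-15). IL-4 gave 3.83-fold (log2 1.94 ± 0.54; edgeR adjusted p = 0.0153), a call that ended when control replicate 2, 3 or 4 was left out (log2 1.64 to 1.81; adjusted p = 0.0569 to 0.0780). It also ended without the 7 libraries richest in ambiguous reads (log2 1.65; edgeR adjusted p = 0.0927).

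At 72 h, Nos2 stood at 40.1, 47.3 and 58.1 CPM with cell extract, 296, 620, 800.1 and 578 CPM with LPS, 2.81, 6.36 and 4.91 CPM with IL-4, and 1.27, 5.69 and 8.56 CPM in control. The cell extract cultures again lay between the LPS cultures and the control cultures without overlap with either. The log2 change was 3.45 ± 0.62 with cell extract (10.9-fold; edgeR adjusted p = 4.29e-05), 7.02 ± 0.64 with LPS (adjusted p = 8.61e-12) and 0.06 ± 0.67 with IL-4 (adjusted p = 0.968). The effect of cell extract was larger at 72 h than at 8 h by 2.29 ± 0.76 (edgeR adjusted p = 0.0268). Leaving out control 8 h replicate 1 gave 1.00 (edgeR adjusted p = 0.273), without the 3 libraries with higher LPS-induced genes the adjusted p was 0.185, leaving out control 72 h replicate 1 gave 1.64 (0.149), and the call also ended without cell extract 8 h replicate 3 (adjusted p = 0.0561) or cell extract 72 h replicate 4 (0.0625). For LPS the same difference was 0.82 ± 0.74 (edgeR adjusted p = 0.465).

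**Figure D2:**
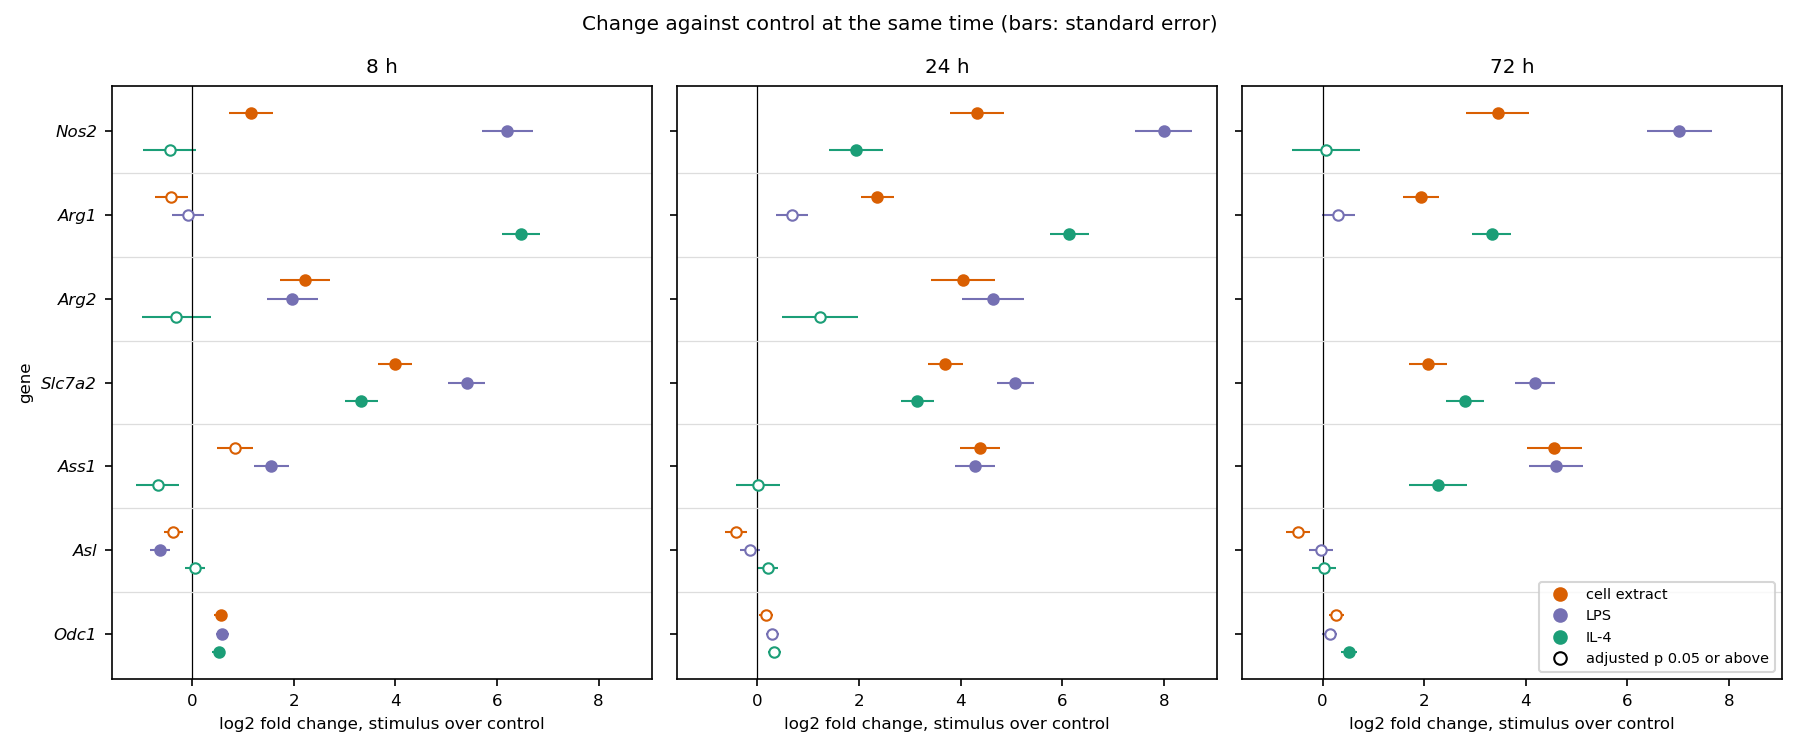
Log2 fold change of each gene against control at the same time, with its standard error, for cell extract, LPS and IL-4, with open symbols where the adjusted p was 0.05 or above. The points for Arg2 at 72 h are left out because its control libraries held 1 count in all, and Nos2 with LPS reaches 8.00 at 24 h while Asl and Odc1 stay within 0.64 of no change throughout.

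Arg1 (ENSMUSG00000019987; chromosome 10, 24915221 to 24927484, minus strand) rose most with IL-4, and at 24 and 72 h also with cell extract. At 8 h it stood at 12.8, 8.46, 16.6 and 12.5 CPM with cell extract, 11.5, 18.5, 14.6 and 17.7 CPM with LPS, 1811, 1521, 1106 and 1426 CPM with IL-4, and 17.8, 13.0, 17.9 and 17.8 CPM in control. The IL-4 cultures stood apart, and the other 3 groups overlapped. IL-4 raised it 88.6-fold (log2 6.47 ± 0.38; edgeR adjusted p = 5.77e-16), while the log2 change was -0.41 ± 0.32 with cell extract (adjusted p = 0.399) and -0.08 ± 0.32 with LPS (adjusted p = 0.872).

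At 24 h, Arg1 stood at 87.2, 99.5 and 140.1 CPM with cell extract, 22.6, 21.8, 65.1 and 25.1 CPM with LPS, 1626, 1475, 1503 and 1398 CPM with IL-4, and 23.5, 12.4, 36.1 and 12.9 CPM in control. All 3 cell extract cultures exceeded every LPS and control culture. Arg1 rose 5.13-fold with cell extract (log2 2.36 ± 0.33; edgeR adjusted p = 4.08e-07) and 70.6-fold with IL-4 (log2 6.14 ± 0.38; adjusted p = 2.76e-15). With LPS the log2 change was 0.68 ± 0.31 (edgeR adjusted p = 0.0857), and it passed without control replicate 3 (1.10; adjusted p = 0.00708), LPS replicate 1 (0.82; 0.0495) or LPS replicate 2 (0.85; 0.0410).

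At 72 h, Arg1 stood at 736, 799 and 777 CPM with cell extract, 318, 227, 273 and 183 CPM with LPS, 1864, 2447 and 1721 CPM with IL-4, and 89.9, 286 and 226 CPM in control. The cell extract cultures were all above the LPS and control cultures, which overlapped, and all below the IL-4 cultures. Arg1 rose 3.85-fold with cell extract (log2 1.94 ± 0.36; edgeR adjusted p = 6.22e-05) and 10.1-fold with IL-4 (log2 3.33 ± 0.38; adjusted p = 1.02e-08), and with LPS the log2 change was 0.31 ± 0.33 (adjusted p = 0.522). The cell extract effect was larger at 72 h than at 8 h by 2.36 ± 0.48 (edgeR adjusted p = 0.000336). The IL-4 effect was smaller at 72 h by 3.14 ± 0.47 (edgeR adjusted p = 1.00e-05; 9.51% of all genes were called higher in this difference, 6.57% lower and 16.1% either way, with 3 of the 7 genes among them). The Arg1 level with IL-4 was not lower at 72 h, at a mean of 2011 CPM against 1466 CPM at 8 h. The control mean meanwhile went from 16.6 CPM at 8 h to 201 CPM at 72 h.

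Arg1 also changed with time in culture without any addition. It averaged 201 ± 101 CPM in control cultures at 72 h (n = 3), against 16.6 ± 2.43 CPM in control cultures at 8 h (n = 4), a log2 rise of 3.60 ± 0.35 (edgeR adjusted p = 8.92e-10). It was 1 of the 2 genes of these 7 that were called between these controls, where 6.38% of all genes were called higher, 7.16% lower and 13.5% either way. The summed level of 8 mesothelial markers was 69.0 to 103 CPM in control cultures at 72 h, against 11.6 to 18.5 CPM in control cultures at 8 h, and that of 7 fibroblast markers was 488 to 1091 CPM, against 141 to 160 CPM. Their part in the rise of Arg1 was not tested. Mesothelial sums were lower at 72 h in the stimulated cultures, at 1.13 to 3.08 CPM with cell extract, 1.93 to 5.49 with LPS and 4.33 to 17.5 with IL-4, and so were fibroblast sums, at 197 to 231, 160 to 292 and 90.1 to 204 CPM.

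Arg2 (ENSMUSG00000021125; chromosome 12, 79130777 to 79156301, plus strand) was low throughout, and at 8 and 24 h it was called with LPS and cell extract and not with IL-4. Of its exonic bases 28.1% are shared with the opposite-strand genes Vti1b and Gm48780. Since the strand setting of the counting is not given, it cannot be told whether reads there were counted for Arg2 or set aside as ambiguous. At 8 h it stood at 6.04, 7.42, 6.81 and 7.47 CPM with cell extract, 7.19, 7.18, 4.88 and 4.14 CPM with LPS, 1.57, 1.51, 0.621 and 0.633 CPM with IL-4, and 1.24, 1.77, 0.959 and 1.71 CPM in control. Every cell extract and LPS culture lay above every control culture, and the IL-4 range overlapped the control range. The log2 change was 2.22 ± 0.49 with cell extract (edgeR adjusted p = 0.000386), 1.97 ± 0.50 with LPS (adjusted p = 0.00122) and -0.31 ± 0.68 with IL-4 (adjusted p = 0.877). At 24 h it stood at 7.31, 5.97 and 5.26 CPM with cell extract, 11.8, 9.99, 8.76 and 7.02 CPM with LPS, 0, 0.672, 1.32 and 0.830 CPM with IL-4, and 0, 0.535, 0.259 and 0.473 CPM in control, again with only the IL-4 cultures overlapping the control cultures. The rises were 16.6-fold with cell extract (log2 4.05 ± 0.63; edgeR adjusted p = 2.73e-06) and 24.8-fold with LPS (log2 4.63 ± 0.61; adjusted p = 4.54e-08), with 1.23 ± 0.75 for IL-4 (adjusted p = 0.367).

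By 72 h the 3 control libraries held 1 Arg2 count in all, and the test's calls rest on that count. The cell extract libraries held 255 counts (6.47, 7.88 and 8.68 CPM), the LPS libraries 254 (1.93, 12.3, 7.32 and 9.32 CPM) and the IL-4 libraries 164 (0.493, 9.44 and 1.02 CPM), against 0, 0.355 and 0 CPM in control. Set against control, the depth-scaled ratio of summed counts was 68.1 with cell extract (95% interval 12.1 to 2701), 92.6 with LPS (16.5 to 3670) and 27.3 with IL-4 (4.84 to 1086). The intervals reflect counting error alone, as reads that carry no molecular identifier can repeat 1 molecule. IL-4 replicate 3 gave 135 of the 164 counts, and without it the adjusted p for IL-4 was 0.0626.

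Scaled by merged exon length (4412 bases for Nos2 and 2228 for Arg1), the levels of Nos2 and Arg1 could be set against each other within each library. Nos2 exceeded Arg1 in 4 of 4 LPS libraries at 8 h, 4 of 4 at 24 h and 3 of 4 at 72 h. It also did so in 1 of 4 cell extract libraries at 8 h and in no other library. The log2 ratio was 0.47, 0.57 and 0.68 in those LPS libraries at 72 h and 0.21 in that cell extract library. Another choice of length could change these narrow cases. The log2 ratio of Nos2 to Arg1 RPKM with cell extract was -0.33 ± 0.68 at 8 h (SD, n = 4), -2.26 ± 0.52 at 24 h and -4.99 ± 0.24 at 72 h (n = 3 each). With LPS it was 4.43 ± 0.33, 3.30 ± 0.88 and 0.15 ± 0.83 at the same times (n = 4 each), and with IL-4 it was -8.84 ± 0.52, -8.37 ± 0.21 and -9.79 ± 0.50. In control cultures the ratio was -2.46 ± 1.30, -4.18 ± 1.35 and -6.49 ± 0.72. The ratio was thus lower at 72 h than at 8 h in cell extract, LPS, IL-4 and control cultures alike, in ranges that did not overlap within each of these series. For IL-4 the ranges nearly met, with a lowest value of -9.37 at 8 h and a highest of -9.44 at 72 h.

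**Figure D3:**
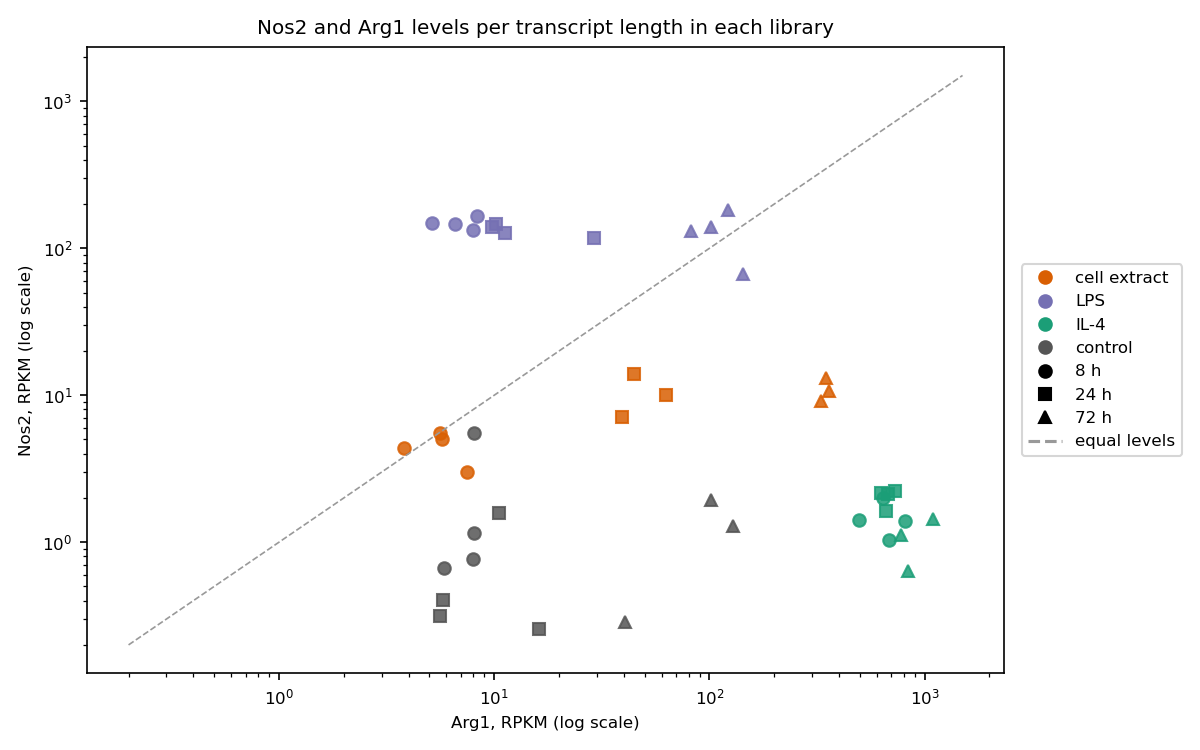
Nos2 against Arg1 in RPKM (both axes log), with 1 symbol per library, colours for stimuli and shapes for times, and a dashed line at equal levels. LPS libraries keep Nos2 between 67.1 and 181 RPKM while their Arg1 level climbs with time, and cell extract libraries move to the right from 8 to 72 h.

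Ass1 (ENSMUSG00000076441; chromosome 2, 31470207 to 31520672, plus strand) makes argininosuccinate from citrulline, the step that limits the return of citrulline to arginine. At 8 h it stood at 26.8, 23.5, 26.1 and 23.6 CPM with cell extract, 48.0, 34.3, 41.1 and 40.7 CPM with LPS, 8.00, 11.6, 6.83 and 8.54 CPM with IL-4, and 14.3, 14.2, 13.3 and 13.6 CPM in control. All cell extract and LPS cultures lay above, and all IL-4 cultures below, the control cultures. LPS raised it (log2 1.56 ± 0.35; edgeR adjusted p = 0.000282), while the changes with cell extract (log2 0.84 ± 0.35; adjusted p = 0.0629) and IL-4 (log2 -0.68 ± 0.42; adjusted p = 0.395) did not pass. For cell extract at 8 h the change did pass with RLE size factors (adjusted p = 0.0430), in DESeq2 (0.0368), with no filter on low counts and in a fit of the compared groups alone.

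At 24 h, Ass1 stood at 108.5, 117 and 121 CPM with cell extract, 115, 112, 100.5 and 102 CPM with LPS, 7.62, 4.07, 6.03 and 6.64 CPM with IL-4, and 5.43, 6.85, 4.93 and 4.91 CPM in control. The cell extract and LPS cultures overlapped each other and stood far above the rest. The rises were 20.9-fold with cell extract (log2 4.38 ± 0.40; edgeR adjusted p = 1.99e-11) and 19.4-fold with LPS (log2 4.28 ± 0.39; adjusted p = 5.98e-12). At 72 h, Ass1 stood at 72.0, 74.3 and 87.5 CPM with cell extract, 45.3, 78.9, 91.0 and 97.7 CPM with LPS, 4.47, 39.6 and 4.39 CPM with IL-4, and 2.12, 3.91 and 4.82 CPM in control. The cell extract and LPS ranges again overlapped, and in the IL-4 group replicate 3 stood alone.

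The log2 rise of Ass1 at 72 h was 4.56 ± 0.54 with cell extract (23.6-fold; edgeR adjusted p = 2.48e-08) and 4.60 ± 0.53 with LPS (24.3-fold; adjusted p = 3.49e-09). For IL-4 it was 2.27 ± 0.57 (edgeR adjusted p = 0.00284), but 0.43 without replicate 3 (adjusted p = 0.329). The effect on Ass1 was larger at 72 h than at 8 h by 3.72 ± 0.66 for cell extract (edgeR adjusted p = 5.09e-05) and by 3.05 ± 0.65 for LPS (adjusted p = 0.000305; of all genes 15.7% were called higher in the LPS difference, 14.3% lower and 30.0% either way, with 3 of the 7 among them). The control level fell meanwhile, at 3.62 ± 1.37 CPM in control cultures at 72 h (n = 3), against 13.9 ± 0.496 CPM in control cultures at 8 h (n = 4; log2 -2.07 ± 0.56; edgeR adjusted p = 0.0104). Without control 72 h replicate 1 that fall was -1.69 with edgeR adjusted p = 0.130.

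RefSeq promoter windows, from 250 bases before the start to 50 after it (GRCm38.p6), were at hand for Ass1 and Odc1. They are shown because only these 2 of the 7 genes were matched by symbol. Any part of the marked matches in the RNA changes of either gene was not tested. Capitals mark matches to a loose pattern used for NF-kB: GGG, any 5 bases, then CC, on either strand. All its fixed letters are G or C, and a match does not show an NF-kB site. The Ass1 window, chr2:31470020-31470319 on the plus strand, has 74% G and C and the Odc1 window, chr12:17544623-17544922 on the plus strand, has 78%.
Ass1: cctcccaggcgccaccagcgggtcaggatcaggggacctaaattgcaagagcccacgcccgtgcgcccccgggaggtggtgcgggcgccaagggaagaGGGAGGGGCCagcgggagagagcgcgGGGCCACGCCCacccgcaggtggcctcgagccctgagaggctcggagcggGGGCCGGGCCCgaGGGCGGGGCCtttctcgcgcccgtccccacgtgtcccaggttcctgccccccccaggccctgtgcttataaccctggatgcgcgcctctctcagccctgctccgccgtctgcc
Odc1: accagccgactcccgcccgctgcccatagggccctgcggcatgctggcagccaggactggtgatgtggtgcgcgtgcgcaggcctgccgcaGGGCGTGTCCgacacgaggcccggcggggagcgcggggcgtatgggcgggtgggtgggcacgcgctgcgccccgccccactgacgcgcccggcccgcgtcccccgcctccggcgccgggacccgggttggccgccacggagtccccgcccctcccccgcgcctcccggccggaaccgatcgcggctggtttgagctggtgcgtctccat
The Ass1 window held 6 matches over both strands, of which 2 pairs overlap on opposite strands, and the Odc1 window held 1. Of 32851 promoter windows of the same length 50.8% held at least 1 such match, and the share with as many as 6 was not computed. Those windows were not matched to these 2 for G and C content. Neither window held the STAT6 motif (TTC and GAA with 4 bases between, found in 6.95% of promoters), the interferon-stimulated response element (GAAA, 2 bases and GAAA, 3.44%) or TATAAA (13.6%).

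Asl (ENSMUSG00000025533; chromosome 5, 130011258 to 130029247, minus strand) cleaves argininosuccinate to arginine and fumarate, and it did not follow Ass1. Its level ran from 23.5 to 95.9 CPM over all libraries. At 8 h it stood at 36.6, 30.7, 31.4 and 33.2 CPM with cell extract, 27.3, 25.4, 25.1 and 31.8 CPM with LPS, 39.2, 41.4, 60.9 and 39.2 CPM with IL-4, and 43.4, 38.2, 43.8 and 45.2 CPM in control. The cell extract and LPS cultures lay below all control cultures. LPS lowered it (log2 -0.64 ± 0.20; 1.56-fold; edgeR adjusted p = 0.00714), whereas the changes with cell extract did not pass at 8 h (-0.37 ± 0.19; adjusted p = 0.163), 24 h (-0.42 ± 0.21; adjusted p = 0.175) or 72 h (-0.48 ± 0.24; adjusted p = 0.136), although every cell extract culture lay below every control culture at each time. With LPS at 24 and 72 h the log2 change was -0.15 and -0.03, and with IL-4 it was 0.06, 0.21 and 0.03 at the 3 times, none called. The cell extract changes passed at each time when the 3 libraries with higher LPS-induced genes were left out (edgeR adjusted p = 0.0456, 0.0405 and 0.0201). The log2 changes themselves hardly moved, at -0.36, -0.41 and -0.48, and none of the 3 libraries is from 72 h.

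Odc1 (ENSMUSG00000011179; chromosome 12, 17544794 to 17551505, plus strand), the first enzyme of polyamine synthesis, rose at 8 h with each stimulus and at 72 h with IL-4, by at most 1.51-fold. At 8 h it stood at 73.4, 77.6, 69.6 and 65.1 CPM with cell extract, 71.9, 63.4, 71.9 and 86.1 CPM with LPS, 52.9, 55.0, 87.0 and 86.0 CPM with IL-4, and 44.7, 46.7, 45.2 and 57.4 CPM in control. The cell extract and LPS cultures lay above all control cultures, and the IL-4 cultures overlapped them. The log2 rise was 0.56 ± 0.13 with cell extract (1.47-fold; edgeR adjusted p = 0.000478), 0.59 ± 0.13 with LPS (1.51-fold; adjusted p = 0.000132) and 0.52 ± 0.13 with IL-4 (1.44-fold; adjusted p = 0.00552). The IL-4 call ended without IL-4 replicate 3 or 4 (edgeR adjusted p = 0.0511 and 0.0705) and in a fit of these groups alone (0.212).

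At 24 h no change of Odc1 passed, with log2 values of 0.17 ± 0.13 for cell extract, 0.29 ± 0.13 for LPS and 0.33 ± 0.13 for IL-4 (edgeR adjusted p = 0.423, 0.0659 and 0.111). The change with LPS passed in DESeq2 (0.30; adjusted p = 0.0348) and in a fit of the compared groups alone (0.35; adjusted p = 0.00536), with every LPS culture above every control culture. The 72 h effect less the 8 h effect was -0.29 for cell extract, -0.46 for LPS and -0.00 for IL-4 (edgeR adjusted p = 0.321, 0.0681 and 0.999). At 72 h it stood at 51.0, 50.3 and 52.3 CPM with cell extract, 35.7, 46.7, 48.2 and 52.6 CPM with LPS, 62.4, 56.4 and 64.3 CPM with IL-4, and 40.3, 43.4 and 44.4 CPM in control. IL-4 cultures were the highest and did not overlap the others. The IL-4 change passed there, at 0.52 ± 0.15 (1.43-fold; edgeR adjusted p = 0.00983), with 0.27 ± 0.15 for cell extract and 0.14 ± 0.15 for LPS (adjusted p = 0.201 and 0.534).

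By its title the series concerns damage signals from cells and the pro-inflammatory (M1) state of macrophages, and cell extract against LPS sets such a signal beside the classical M1 stimulus. Nos2 and Slc7a2 were lower with cell extract than with LPS at every time, Arg1 was higher at 24 and 72 h, and Ass1, Arg2, Odc1 and Asl were not called. At 8 h, 2 of the 7 genes were called, both lower (of all genes 14.0% were called higher, 15.1% lower and 29.1% either way). At 24 h, 1 was higher and 2 were lower (8.06% of all genes higher, 8.76% lower, 16.8% either way), and at 72 h again 1 was higher and 2 were lower (11.0% higher, 11.4% lower, 22.4% either way).

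The log2 difference for Nos2, cell extract over LPS, was -5.04 ± 0.47 at 8 h, -3.67 ± 0.49 at 24 h and -3.57 ± 0.49 at 72 h, a 32.9-fold, 12.7-fold and 11.9-fold lower level (edgeR adjusted p = 1.13e-11, 2.29e-07 and 5.19e-07). For Slc7a2 it was -1.41 ± 0.31, -1.38 ± 0.34 and -2.11 ± 0.35 (edgeR adjusted p = 0.000382, 0.00279 and 1.72e-05). Arg1 was 3.20-fold higher with cell extract at 24 h (log2 1.68 ± 0.33; edgeR adjusted p = 0.000159) and 3.10-fold higher at 72 h (log2 1.63 ± 0.32; adjusted p = 0.000202). In the fits that left out 1 library of the compared groups, the count of called genes stayed at 2, 3 and 3 over the 3 times.

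Where no difference was called, the intervals show how large it could be. For Ass1 the 95% interval of the log2 difference, cell extract over LPS, was -0.59 to 0.80 at 24 h and -0.76 to 0.68 at 72 h. At 8 h it was -1.41 to -0.02, with every cell extract culture below every LPS culture (edgeR adjusted p = 0.122; 0.000761 in a fit of these groups alone). The Arg2 intervals were -0.67 to 1.19, -1.54 to 0.37 and -1.17 to 0.81 at 8, 24 and 72 h, and the difference at 24 h passed when only the compared groups were fitted (-0.59; edgeR adjusted p = 0.0325). Those of Asl were -0.13 to 0.68, -0.69 to 0.17 and -0.90 to -0.00. At 72 h every cell extract culture had less Asl RNA than every LPS culture, with a log2 difference of -0.45. This difference passed in a fit of the compared groups alone (-0.43, edgeR adjusted p = 0.0429). It also passed without the 3 libraries with higher LPS-induced genes (-0.45, edgeR adjusted p = 0.0214). With the compared groups alone Asl also passed at 8 h, at 0.33 (edgeR adjusted p = 0.0391). Those of Odc1 were narrower, at -0.29 to 0.22, -0.39 to 0.16 and -0.15 to 0.41.

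**Figure D4:**
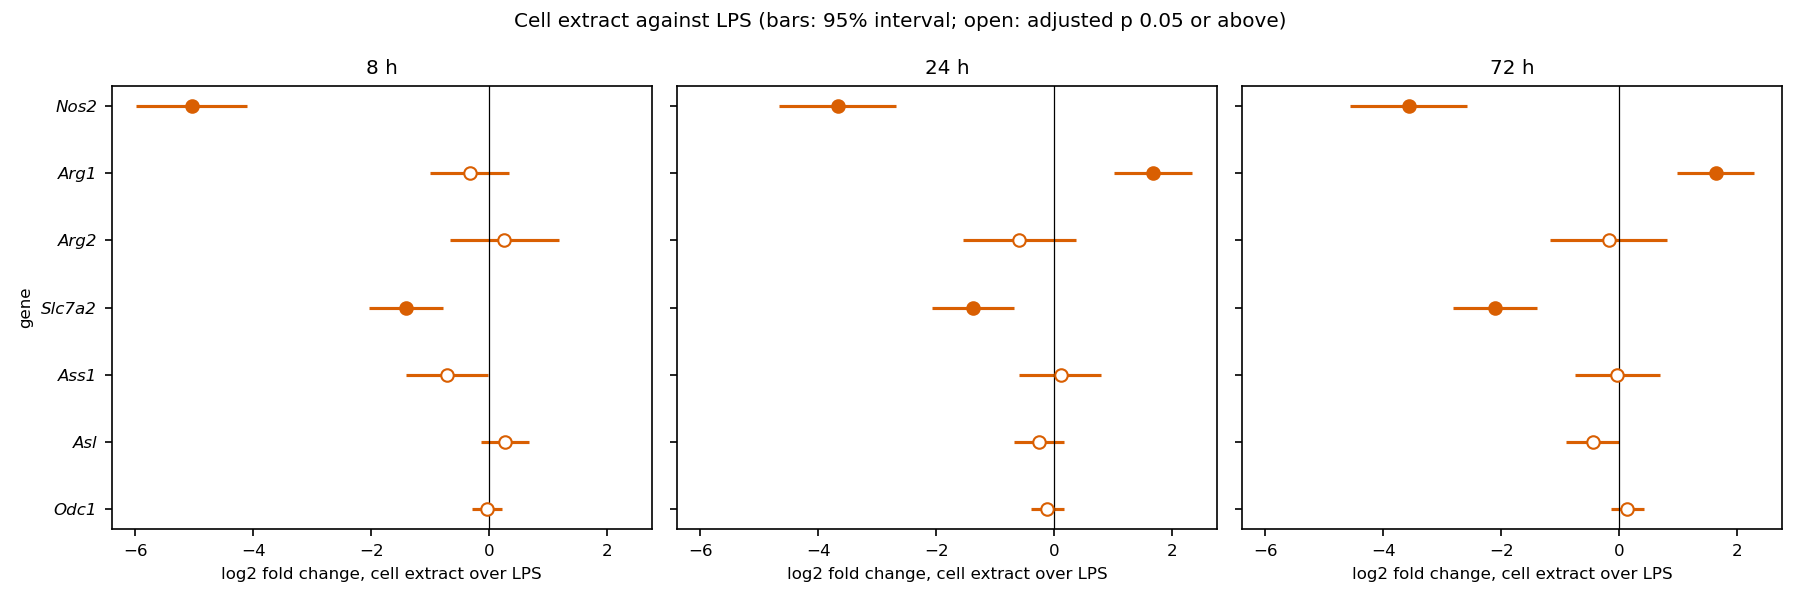
Log2 fold change of each gene with cell extract over LPS at the same time, with its 95% interval, and open symbols where the adjusted p was 0.05 or above. Nos2 lies between -5.04 and -3.57 and Slc7a2 between -2.11 and -1.38, Arg1 stands at 1.68 and 1.63 at 24 and 72 h, and the intervals of Ass1 at 24 and 72 h span 0.

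Between LPS and IL-4, 6 of the 7 genes were called at 8 h, 4 higher and 2 lower (20.8% of all genes higher, 21.8% lower, 42.6% either way). At 24 h, 4 were higher and 1 was lower (18.1% of all genes each way, 36.2% either way), and at 72 h, 4 were higher and 2 were lower (18.7% higher, 20.4% lower, 39.1% either way). Nos2 was 99.6-fold higher with LPS at 8 h (log2 6.64 ± 0.54; edgeR adjusted p = 1.33e-13), and Arg1 was 93.5-fold lower (log2 -6.55 ± 0.39; adjusted p = 1.15e-17). Slc7a2 was 4.21-fold higher at 8 h, 3.80-fold at 24 h and 2.60-fold at 72 h (edgeR adjusted p = 6.65e-07, 3.07e-06 and 0.00129). Ass1 was 19.3-fold higher with LPS at 24 h (log2 4.27 ± 0.41; edgeR adjusted p = 1.93e-11).

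At 72 h the LPS and IL-4 cultures also differed in Odc1 (log2 -0.38 ± 0.14; edgeR adjusted p = 0.0229) and Arg2 (log2 1.29 ± 0.49; adjusted p = 0.0359). The Odc1 call ended with RLE size factors (adjusted p = 0.0628), in DESeq2 (0.0542) and without IL-4 replicate 2 or 4 (0.0642 and 0.0859), and the Arg2 call when LPS replicate 2, 3 or 4 or IL-4 replicate 2 or 4 was left out (adjusted p = 0.0517 to 0.218). The summed neutrophil marker level was 300 to 527 CPM with LPS at 72 h, against 13.1 to 18.4 CPM with IL-4 at 72 h. In any library S100a8 reached at most 517 CPM and no other marker of that list passed 12.9 CPM. The part of this sum in the LPS and IL-4 differences was not tested.

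Between control cultures at 24 h and at 8 h, 0 of the 7 genes were called by edgeR (of all genes 0.323% were called higher, 0.213% lower and 0.537% either way). At an unadjusted p under 0.05 there were 3 of the 7, and 1708 of all tested genes, and DESeq2 called 1 of the 7, Ass1 (adjusted p = 0.0413). Ass1 stood at 5.53 ± 0.911 CPM in control cultures at 24 h, against 13.9 ± 0.496 CPM in control cultures at 8 h (n = 4 each), without overlap.

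No gene had an order of the 12 group means in which all neighbours were apart. Of the 11 neighbouring pairs of groups in that order, the library ranges overlapped in 8 for Nos2, 7 for Arg1, 11 for Arg2, 8 for Slc7a2, 6 for Ass1, 10 for Asl and 11 for Odc1. The highest group mean was 233 times the lowest for Nos2, 160 times for Arg1 and 31.9 times for Ass1, but 1.76 times for Asl and 1.72 times for Odc1. For Nos2 the 3 LPS groups came first and overlapped one another, and for Ass1 cell extract and LPS at 24 h led with overlap. Odc1 was highest in the 3 stimulated groups at 8 h (70.2 to 73.3 CPM), which overlapped.

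The mean log2 levels of these genes over the 12 groups were correlated to different degrees, which is given as a description, since groups share 1 isolate and differ in depth. Pearson's r was 0.93 for Arg2 and Ass1, 0.83 for Nos2 and Ass1, 0.79 for Nos2 and Slc7a2, -0.26 for Nos2 and Arg1, and -0.70 for Ass1 and Asl (12 groups). Among all tested genes, those most like Nos2 in this measure were Psme1 (r = 0.989), Psmb8 (0.989), Gm4951 (0.988), Ms4a4c (0.984) and Tapbpl (0.984). Psme1 encodes a subunit of a proteasome activator and Psmb8 one of the immunoproteasome. Those most like Arg1 were less close to it and were Cisd1 (0.908), Nfil3 (0.907), Slc36a2 (0.893), Azin2 (0.893) and Srp72 (0.883), among which Azin2 encodes an antizyme inhibitor of the polyamine pathway.

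A wider list of 55 genes of arginine transport, nitric oxide, proline, polyamine and creatine metabolism, without the 7 above, was examined beside them, of which 46 passed the filter. With cell extract, 9 rose and 10 fell at 8 h (41.3% of the list called, 30.2% of all tested genes), 4 rose and 5 fell at 24 h (19.6% and 22.1%), and 8 rose and 9 fell at 72 h (37% and 26.3%). With LPS, 10 rose and 18 fell at 8 h (60.9% of the list, 45.4% of all genes), 8 rose and 13 fell at 24 h (45.7% and 37.9%), and 7 rose and 12 fell at 72 h (41.3% and 31.5%). With IL-4, 6 rose at 8 h (13% of the list, 8.33% of all genes), 3 rose and 3 fell at 24 h (13% and 9.50%), and 9 rose and 5 fell at 72 h (30.4% and 23.7%). The median log2 change of the list was -0.21 with LPS at 8 h and 0.26 with IL-4 at 8 h, where all tested genes had 0.00 and -0.04.

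Gch1, the GTP cyclohydrolase that starts the synthesis of tetrahydrobiopterin, the cofactor of nitric oxide synthases, moved with LPS and cell extract. It averaged 220 ± 12.6 CPM with cell extract at 8 h, 632 ± 103 CPM with LPS at 8 h, and 51.5 ± 9.10 CPM in control cultures at 8 h (n = 4 each). Its rise at 8 h passed with cell extract (4.29-fold; edgeR adjusted p = 2.18e-13) and with LPS (12.3-fold; adjusted p = 3.60e-20), and at 24 h the log2 change was 1.94 ± 0.17 and 3.22 ± 0.17. At 72 h Gch1 averaged 83.7 ± 8.26 CPM with cell extract, 186 ± 39.1 CPM with LPS and 46.5 ± 5.93 CPM in control cultures. The log2 rise of Gch1 with LPS at 72 h was 2.02 ± 0.19 (edgeR adjusted p = 2.18e-11). With IL-4 it averaged 56.5 ± 13.8 CPM at 8 h and was not called at any time. The cofactor genes Pts, Spr and Qdpr did not pass as a rise in any of the 9 comparisons with control. With cell extract at 8 h Pts and Qdpr fell by 0.55 and 0.54 on the log2 scale (edgeR adjusted p = 0.0133 and 0.00794), and with LPS at 8 h Spr and Qdpr fell by 0.75 and 0.73 (edgeR adjusted p = 0.000196 and 0.000235).

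Among the carriers on the list, Slc7a8, which moves neutral amino acids, rose with cell extract (log2 1.23 ± 0.18, 1.83 ± 0.20 and 1.68 ± 0.24 at 8, 24 and 72 h) and with LPS (2.64 ± 0.19, 2.44 ± 0.19 and 2.08 ± 0.23). Slc7a7, a subunit of a carrier that exports cationic amino acids, rose with cell extract at 72 h (1.26 ± 0.39; edgeR adjusted p = 0.0136). Slc7a1 rose with IL-4 at 72 h (117 ± 18.6 CPM, against 28.2 ± 4.36 CPM in control cultures; n = 3 each; log2 2.04 ± 0.16; edgeR adjusted p = 1.82e-12), beside Aldh18a1, which makes the precursor of proline and ornithine from glutamate (1.68 ± 0.20; adjusted p = 4.09e-08). Gatm, the arginine:glycine amidinotransferase of creatine synthesis, rose with IL-4 at 8 h (107 ± 12.4 CPM, against 26.7 ± 2.84 CPM in control cultures; log2 1.99 ± 0.22; edgeR adjusted p = 8.50e-09). It was also called at 24 h (1.58 ± 0.21; edgeR adjusted p = 9.57e-07). Azin2 rose with IL-4 at 8 h (1.14 ± 0.30; edgeR adjusted p = 0.0113) and Srm, spermidine synthase, at 24 h (0.85 ± 0.26; edgeR adjusted p = 0.0309). Smox, spermine oxidase, and Slc6a8, the creatine transporter, fell with IL-4 at 24 h by 0.72 and 0.47 on the log2 scale (edgeR adjusted p = 0.0256 and 0.0127).

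The 3 tested genes of polyamine breakdown did not move alike. With cell extract at 8 h Paox and Sat1 fell and Smox was not called, and with LPS at 8 h Sat1 and Smox rose while Paox fell. Paox, a polyamine oxidase, stood at 4.04 ± 0.535 CPM with cell extract, 2.13 ± 0.622 CPM with LPS and 7.61 ± 1.84 CPM in control cultures at 8 h (log2 -0.89 ± 0.22 and -1.87 ± 0.25; edgeR adjusted p = 0.00161 and 5.58e-08). With LPS at 8 h Sat1, the spermidine acetyltransferase, averaged 955 ± 114 CPM, against 555 ± 68.9 CPM in control cultures, and Smox averaged 30.9 ± 4.91 CPM, against 12.9 ± 2.85 CPM (edgeR adjusted p = 0.000938 and 9.77e-07). The 3 tested genes of the creatine and agmatine list all fell at 8 h with cell extract and with LPS. Among them Gamt, the second enzyme of creatine synthesis, fell by 1.77 with cell extract and by 1.82 with LPS at 8 h on the log2 scale (edgeR adjusted p = 0.000769 and 0.000639). Gamt was also called lower with LPS at 24 h (log2 -2.08 ± 0.40) and with cell extract at 72 h (-1.97 ± 0.46; edgeR adjusted p = 4.49e-05 and 0.00109). At 24 h Prodh, proline dehydrogenase, fell by 1.56 with LPS on the log2 scale (edgeR adjusted p = 5.08e-06). Sat1 averaged 247 ± 12.7 CPM with cell extract at 24 h, against 550.1 ± 52.8 CPM in control cultures (log2 -1.15 ± 0.22; edgeR adjusted p = 5.76e-05). Gucy1a3, a subunit of the nitric oxide receptor guanylate cyclase, was low throughout, at 0.168 ± 0.291 CPM with cell extract, 0.402 ± 0.381 with LPS, 0.654 ± 0.511 with IL-4 and 3.33 ± 0.454 CPM in control cultures at 72 h, the group with the highest mesothelial and fibroblast marker sums. Ddah2, which breaks down inhibitors of nitric oxide synthases, averaged 1.73 ± 0.917 CPM with cell extract, 0.806 ± 0.616 with LPS, 1.57 ± 0.778 with IL-4 and 6.90 ± 4.22 CPM in control there. Gucy1a3 was also called lower with cell extract at 24 h, at 0.180 ± 0.195 CPM against 1.64 ± 0.288 CPM in control cultures (edgeR adjusted p = 0.00135). Fibroblast sums at 24 h were 227 to 239 CPM with cell extract and 215 to 257 CPM in control cultures. Mesothelial sums at 24 h were 5.255 to 5.535 CPM with cell extract and 22.4 to 25.04 CPM in control cultures. The part of mesothelial and fibroblast cells in Gucy1a3 and Ddah2 was not tested.

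**Figure D5:**
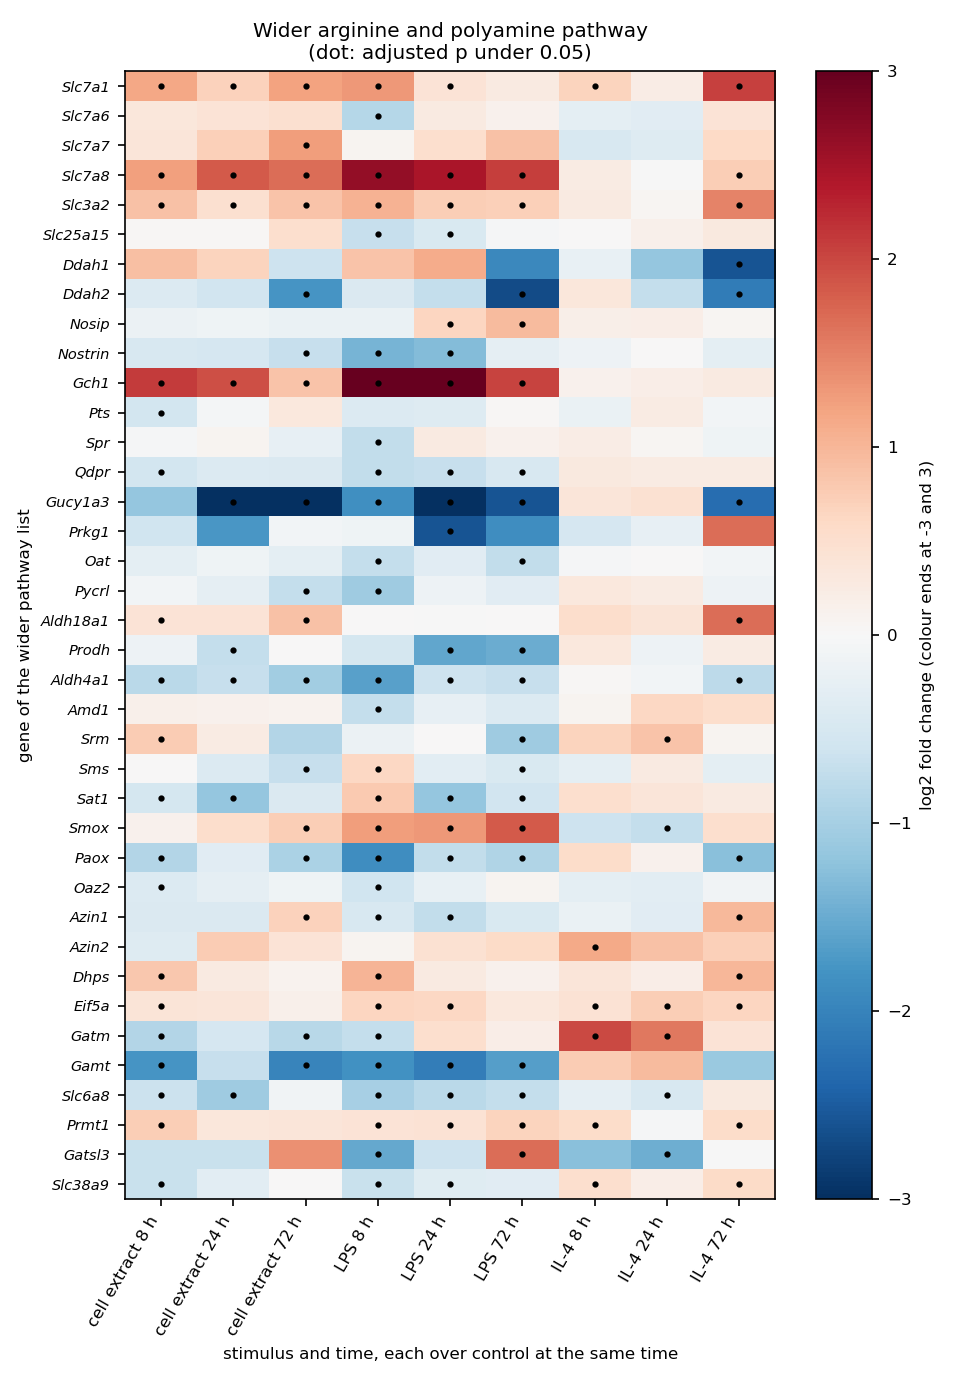
Log2 fold change against control at the same time (colour, ending at -3 and 3) of the 38 genes of the wider list called in at least 1 of the 9 comparisons, with a dot where the adjusted p was under 0.05. Gch1 and Slc7a8 are red with cell extract and LPS at every time, Gatm with IL-4 at 8 and 24 h, and Slc7a1 is deepest with IL-4 at 72 h.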

How the data were processed

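In the 1 deposited table the authors give counts, that is the number of reads assigned to each Ensembl gene, for 44 libraries. The submitters' processing notes list mm10 as the build and, with no roles, edgeR, DESeq, HTSeq, TopHat, TopHat2 2.1.1, Bowtie2 and cutadapt. Per the labels' protocols the libraries hold polyadenylated RNA, with single-end reads of 50 bp. Neither the annotation release nor the strand setting is stated in what was used here. Entries that name no gene stayed out of library sizes and tests: ambiguous reads came to 5.39% of the gene counts overall (3.16% to 17.3% per library), and reads not uniquely placed to 41.7 to 92.8 per 100 gene counts.

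From these counts, genes were kept with edgeR's filterByExpr (minimum count 10; 14537 genes), scaled by TMM and tested with edgeR's quasi-likelihood test (edgeR 4.0.16, limma 3.58.1, R 4.3.3) in 1 fit of 12 groups, with 32 residual degrees of freedom and Benjamini-Hochberg adjustment over all kept genes. The common biological coefficient of variation was 0.219. CPM use TMM-scaled library sizes, RPKM add the merged exon length, and positions come from an Ensembl-based annotation of GRCm38 that held 45229 of the 46078 identifiers. The procedure was tested on simulated data with known changes. Replicates of a group differed beyond sampling noise in every group, so none was counted as a repeat of another. Depth per library ran from 0.908 to 26.6 M counts.

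The 7 genes and the wider list were chosen with earlier results of these data known. Of the wider list the text names genes by rule: in each comparison up to 2 with the largest rise and up to 2 with the largest fall, among those called with a mean of at least 1 CPM. It gives those of the 9 comparisons with control at the same time, and not those of the other comparisons. Levels of Gucy1a3 and Ddah2 are given without folds. Other cofactor, creatine and polyamine breakdown genes were named after their values were seen, to show how these short lists moved at 8 h. Some items are not reported here and were left out of the counts of the list. Genes most like Nos2 and Arg1 are the 5 with the highest Pearson correlation over the 12 groups. Alternatives were RLE size factors, DESeq2 1.42.0, no filter, the compared groups alone, a replicate block, leaving out each library, leaving out 3 libraries with higher LPS-induced genes and, chosen after seeing the data, leaving out 7 libraries with over 10% ambiguous reads. All of those 7 carry replicate number 3, and none is from an IL-4 group.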

Additional observations from a re-analysis of the deposited data

Results flagged for a closer look

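A test for a library far from the rest of its group (Dixon's, at the 95% level, on CPM) was run for each gene in each group of 4. It picked out a library in 11 of these 56 sets. Chance picks about 1 in 20 where sets are independent and values normal, but the same libraries recur across genes here. For Nos2 these were control 8 h replicate 1 at 24.44 CPM (others 2.93 to 5.12), control 24 h replicate 1 at 6.916 CPM (others 1.12 to 1.80) and IL-4 24 h replicate 2 at 7.207 CPM (others 9.42 to 9.80). For Slc7a2 they were control 8 h replicate 1 at 132.5 CPM (others 43.2 to 54.8), IL-4 24 h replicate 1 at 200.4 CPM (others 552 to 579) and LPS 72 h replicate 1 at 896.4 CPM (others 1813 to 1968). For Arg1 they were LPS 24 h replicate 3 at 65.08 CPM (others 21.8 to 25.1) and control 8 h replicate 2 at 12.99 CPM (others 17.8 to 17.9). For Asl they were IL-4 8 h replicate 3 at 60.88 CPM (others 39.2 to 41.4) and IL-4 24 h replicate 1 at 95.86 CPM (others 28.3 to 39.3), and for Odc1 control 8 h replicate 4 at 57.44 CPM (others 44.7 to 46.7).

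Effects of a stimulus differed between 72 h and 8 h, by the test of the difference itself in edgeR, for 10 pairs of gene and stimulus. For cell extract the log2 differences were 2.29 for Nos2, 2.36 for Arg1, -1.92 for Slc7a2 and 3.72 for Ass1. For LPS they were -1.22 for Slc7a2 (edgeR adjusted p = 0.0372), 3.05 for Ass1 and 4.20 for Arg2, and for IL-4 they were -3.14 for Arg1, 2.95 for Ass1 and 5.19 for Arg2. Both Arg2 values rest on 1 count in the control libraries at 72 h, and the call for LPS ended without control 72 h replicate 1 (edgeR adjusted p = 0.130). The Slc7a2 call for LPS ended in 7 of the fits that left out 1 library (-1.24 to -0.86). Without IL-4 72 h replicate 3 the Arg2 difference for IL-4 was 2.92 (edgeR adjusted p = 0.0732) and that of Ass1 was 1.11 (0.0326). Mean Arg1 with IL-4 was 1466 CPM at 8 h and 2011 CPM at 72 h, while its control mean went from 16.6 to 201 CPM.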

How the results depend on the processing

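No value changed sign past the threshold under any alternative. Of 140 log2 values for the 7 genes, RLE size factors ended 1 call and added 2, DESeq2 ended 1 and added 6, no filter ended 2 and added 10, the compared groups alone ended 10 and added 11, and leaving out the 3 libraries with higher LPS-induced genes ended 1 and added 7. Leaving out 7 libraries rich in ambiguous reads, chosen after seeing the data, ended 7. Counts of called genes among the 7 moved as follows. With the compared groups alone, IL-4 against control at 72 h had 3 (against 5), cell extract against LPS at 8 h had 4 (against 2), control at 24 h against 8 h had 1 (against 0) and the IL-4 effect difference had 1 (against 3). With no filter, control at 24 h against 8 h had 3 and control at 72 h against 8 h had 4 (against 2). DESeq2 gave 1 between control cultures at 24 h and 8 h, and the cell extract effect difference had 2 without the ambiguous-rich libraries (against 4). Leaving out 1 library gave 3 (without IL-4 72 h replicate 3) to 5 for IL-4 at 72 h, 0 to 1 for control cultures at 24 h against 8 h, 1 to 2 for those at 72 h against 8 h, and no reversal; of 1183 such values 34 lost and 11 gained a call. Over all genes, the compared groups alone gave 2941 calls for LPS at 72 h (against 4576), 549 for IL-4 at 8 h (1211), 696 for IL-4 at 24 h (1381), 4090 for cell extract against LPS at 24 h (2446), 1315 for the IL-4 effect difference (2338) and 905 between control cultures at 72 h and 8 h (1968). Control at 24 h against 8 h had 78 calls, but 368 with no filter, 164 in DESeq2, 33 without the 3 libraries and 26 without the ambiguous-rich ones. Leaving out 1 library gave 27 (control 24 h replicate 2) to 82 (control 8 h replicate 2) there, and 860 (control 72 h replicate 1) to 2390 (control 8 h replicate 3) at 72 h. RLE moved the share of higher calls for IL-4 at 72 h to 42.3% (TMM 55.6%), control at 72 h against 8 h to 64.1% (47.1%), and the effect differences of cell extract to 48.1% (60%) and IL-4 to 41.6% (59.2%). It moved the median of all genes by -0.11 for IL-4 at 72 h. Replicate numbers were not taken as pairs, since no label says that a number marks a shared batch or day and deviations of same-numbered libraries correlated over 0.1 in 128 of 223 pairs and not in all (median 0.13, range -0.27 to 0.62). As a hint from the data and not the design, 31 of 44 libraries correlated best with their own number, and the median was 0.24 and 0.21 for numbers 2 and 3 and 0.03 for numbers 1 and 4. The 7 libraries rich in ambiguous reads also all carry number 3, and none of them received IL-4. A replicate block changed 1 of the 140 calls, the LPS effect difference of Asl (0.70; edgeR adjusted p = 0.0498), and gave 4, 5 and 5 called genes for cell extract at 8, 24 and 72 h. The causes of these shifts were not tested. Low counts limit the Arg2 results, with 1 to 87 counts per control group.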

Other observations

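IL-4 72 h replicate 3 differed from the other 2 cultures of its group in several of these genes at once. It held 9.44 CPM of Arg2, 39.6 of Ass1 and 858 of Slc7a2, where the other 2 held 0.493 and 1.02 CPM of Arg2, 4.47 and 4.39 of Ass1, and 522 and 510.3 of Slc7a2. Its Nos2 level, at 6.36 CPM, lay within the range of the control cultures at 72 h. IL-4 24 h replicate 1, the library with the fewest counts, correlated at 0.21 with the mean of its own group and at 0.30 with that of IL-4 at 8 h.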
